A study of Mus musculus with 11 samples.

Results

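The small proline-rich (Sprr) genes were described in the distal colon of mice that lack neuregulin-4, a growth factor of the epidermal growth factor family, and in their wild-type cagemates. The members were all genes whose symbol starts with Sprr, which gave 16 of the 22243 genes in the deposited table. The family was selected on its level in these same libraries, where Sprr2a2 was already known to lead the nuclear-encoded genes, so its rank and level are description and carry no test. RNA came from full-thickness distal colon of 6 wild-type and 5 Nrg4-/- mice of 11 to 12 weeks, which had lived in cages of mixed genotype since they were 9 weeks old. Cages A and B each held 2 mice of each genotype, and cage C held 2 wild-type mice and 1 Nrg4-/- mouse. The labels state that both sexes were used and name no further treatment, strain or allele. They give no sex per mouse, and the Y-linked gene Eif2s3y read 21.5 to 31.8 TPM (a level corrected for transcript length and scaled to a fixed total) in cage A (n = 4) and no more than 0.0523 TPM in cages B and C (n = 7), so sex and cage A cannot be told apart. Nrg4 itself was listed at 0 in all 11 mice, which leaves the deleted gene without a check of the genotype labels.

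Sprr proteins are short, proline-rich precursors of the cornified envelope, the cross-linked protein shell that lines squamous cells under the plasma membrane. Transglutaminases join their glutamine and lysine residues to each other and to partners such as loricrin and involucrin. The genes lie side by side in the epidermal differentiation complex. Sprr2a has also been described in intestinal epithelium, where its protein acts against Gram-positive bacteria and its level responds to the microbiota, and Sprr1a is known as a gene of injured and regenerating tissue.

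In the GRCm38 annotation (GENCODE M21) the family spanned 285 kb of chromosome 3, from Sprr2a1 at the low end to Sprr4 at the high end. Sprr2a1 (chr3:92215799-92221911), Sprr2a2 (chr3:92215920-92256724) and Sprr2a3 (chr3:92285417-92291405) are neighbours on the plus strand, and Sprr1a (chr3:92483952-92485895) lies on the minus strand near the other end. The coding sequences of Sprr2a1 and Sprr2a3 are printed first to show how alike the copies are. Both are on the plus strand and run from the start codon to the stop codon, read from the GENCODE transcripts, with capitals at the 3 positions that differ between them.
Sprr2a1 (chr3:92219092-92219343): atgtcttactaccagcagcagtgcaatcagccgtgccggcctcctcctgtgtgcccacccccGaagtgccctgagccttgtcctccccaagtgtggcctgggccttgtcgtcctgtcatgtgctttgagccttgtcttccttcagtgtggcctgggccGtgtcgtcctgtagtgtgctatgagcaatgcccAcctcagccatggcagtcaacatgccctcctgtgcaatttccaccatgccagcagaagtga
Sprr2a3 (chr3:92288588-92288839): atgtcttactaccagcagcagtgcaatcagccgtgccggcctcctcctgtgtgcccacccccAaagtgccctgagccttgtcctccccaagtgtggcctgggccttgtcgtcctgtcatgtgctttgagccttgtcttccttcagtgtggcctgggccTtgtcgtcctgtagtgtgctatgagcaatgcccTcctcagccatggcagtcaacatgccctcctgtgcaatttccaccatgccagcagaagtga

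The coding sequence of Sprr2a2 was identical to that of Sprr2a1 over all 252 bases. Sprr2a3 differed from both at G63A, G159T and A192T, counted from the A of the start codon, with the Sprr2a1 base first. Each of these changes fell on the last base of a proline codon and left the amino acid unchanged, so the 3 genes encode 1 protein. Of its 83 codons, 26 encode proline, 13 cysteine and 11 glutamine. In a global alignment of coding sequences, Sprr2b was 88.1% identical to Sprr2a1 over 252 paired bases, with a further 45 positions opposite gaps. It had 41 proline codons among 98. Sprr1a was 74.3% identical to Sprr2a1 over 249 paired bases, with a further 189 positions opposite gaps, and had 46 proline codons among 144.

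The annotated transcripts of the copies share most of their sequence, and this bears on every value given for a single copy. Of the 648 windows of 75 nt, the read length, along the most abundant transcript, Sprr2a2-202 of 722 nt, all 648 also occur in a transcript of Sprr2a1 or Sprr2a3, and none is its own. Its first exon (chr3:92215920-92215962) lies inside the first exon of Sprr2a1 and its second (chr3:92253886-92254564) lies in Sprr2a2, so that the annotated transcript runs from one copy into the next. For the Sprr2a1 transcript, of 3003 nt, 94.3% of windows occur in another gene. Sprr2a3 is easier to tell apart, with 28.9% of the windows of its 682-nt transcript shared with another gene. Sprr1a shares none of its 732 windows, and Sprr2b shares 28 of 710, with Sprr2a1. The sum of the 3 Sprr2a copies is therefore the main value below, and values of single copies are those that the authors' software assigned.

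Summed Sprr2a lay between 18368 TPM in WT-2 and 26881 TPM in WT-10, with a mean of 21952 ± 2404 TPM (SD, n = 11). In wild-type mice the lowest, median and highest sums were 18368, 21777 and 26881 TPM. In Nrg4-/- mice the sums were 20401 in KO-9, 20518 in KO-4, 20687 in KO-8, 23094 in KO-1 and 23328 in KO-3. The Nrg4-/- values all lay inside the wild-type range, and the highest mouse exceeded the lowest by 1.46-fold.

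Sprr2a2 alone was the highest nuclear-encoded gene in each of the 11 mice. Only mitochondrially encoded genes stood above it, and in WT-7 none did. Its mean of 19695 TPM came after mt-Co1, mt-Atp6 and mt-Co3, and the next nuclear-encoded gene was Lypd8, which encodes a secreted protein of colonocytes that binds flagellated bacteria, at 13070 TPM. The 3 copies together made up 2.81% to 4.24% of the summed TPM of a mouse. Only principal transcripts are listed, so these sums fall short of the fixed total. They also differ between mice, from 558446 TPM in KO-1 to 770986 TPM in KO-3. The share of genes encoded in mitochondria was 19.0% of the summed TPM in KO-1 and 42.9% in KO-3, the lowest and highest. With these genes left out of the total, the share of summed Sprr2a was 3.92% in WT-2 and at most 5.30%, in KO-3. The depth of the libraries is unknown, since the table gives TPM per mouse and no read totals. In a bulk sample, fewer cells of a type and less RNA per cell cannot be told apart.

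**Figure D1:**
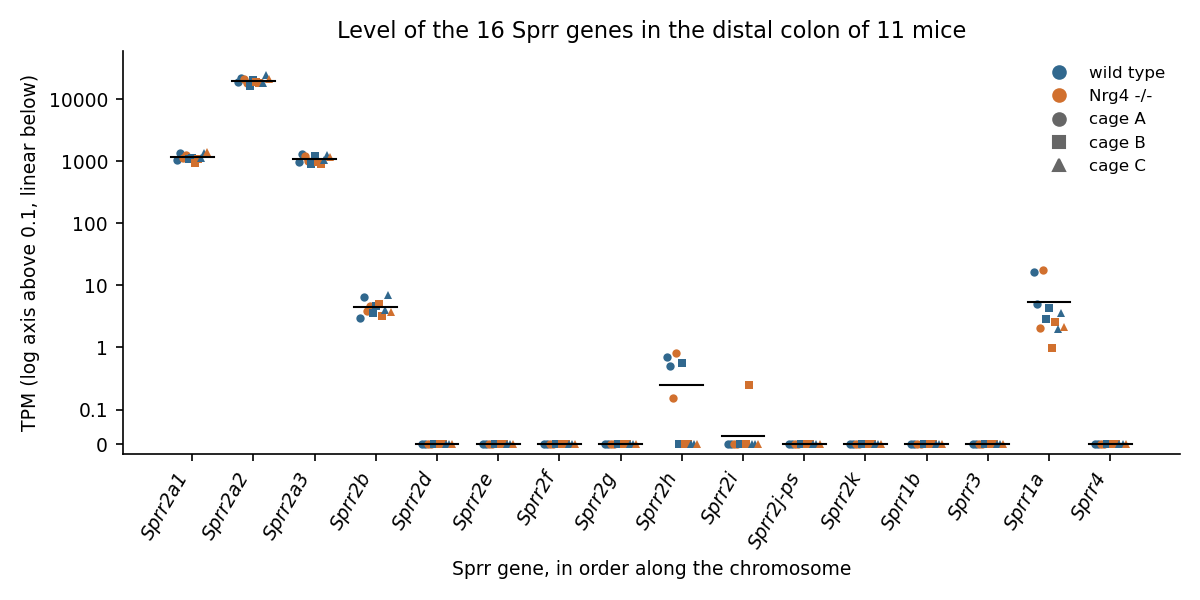
TPM (log axis above 0.1 and linear below) of the 16 Sprr genes in the order of their start on chromosome 3, 1 point per mouse, coloured by genotype and shaped by cage, with a line at the mean of 11 mice. The 3 Sprr2a copies lie between 894 and 24247 TPM, Sprr2b and Sprr1a between 0.988 and 17.4, and 9 genes are at 0 in every mouse.

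The remaining family members were low or listed at 0. Sprr2b, the neighbour of the Sprr2a copies, read 3.02 to 6.88 TPM with a mean of 4.46 ± 1.25 TPM (SD, n = 11). Sprr2h was above 0 in the 4 mice of cage A, at 0.70 TPM in WT-5, 0.497 in WT-7, 0.151 in KO-1 and 0.816 in KO-8, and in WT-11 of cage B at 0.560. It was listed at 0 in the other 6 mice. Sprr2i was above 0 in KO-9 alone, at 0.250 TPM. Sprr1b, Sprr2d, Sprr2e, Sprr2f, Sprr2g, Sprr2j-ps, Sprr2k, Sprr3 and Sprr4 were listed at 0 in every mouse. A value of 0 in this table is not proof of absence, since Ceacam1, an adhesion molecule of colonocytes, was also listed at 0 in all 11 mice. Summed Sprr2a, Sprr1a and Sprr2b thus held all but a trace of the family signal, and 5 of the 16 genes (the 3 copies, Sprr2b and Sprr1a) passed the filter for testing, 1 TPM or more in 5 or more mice.

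The start-site regions of these genes, as placed by RefSeq, fell into separate sequence groups. They are printed because the abundant Sprr2a copies, the Sprr2 genes listed at 0 and Sprr1a differ in them. Each run lies upstream of the start of the gene (RefSeq, GRCm38.p6) and of its GENCODE first exons, is given on the strand of the gene, and shows in capitals the AP-1 letters TGAGTCA or TGACTCA and the TATA letters TATAAA. AP-1 is a family of dimeric transcription factors of the Fos and Jun type.
Sprr2a1 (chr3:92215585-92215798, plus strand): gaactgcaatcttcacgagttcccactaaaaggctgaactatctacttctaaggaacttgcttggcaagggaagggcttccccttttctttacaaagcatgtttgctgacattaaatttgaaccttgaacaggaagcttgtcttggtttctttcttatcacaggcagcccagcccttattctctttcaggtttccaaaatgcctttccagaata
Sprr2d (chr3:92338890-92339139, plus strand): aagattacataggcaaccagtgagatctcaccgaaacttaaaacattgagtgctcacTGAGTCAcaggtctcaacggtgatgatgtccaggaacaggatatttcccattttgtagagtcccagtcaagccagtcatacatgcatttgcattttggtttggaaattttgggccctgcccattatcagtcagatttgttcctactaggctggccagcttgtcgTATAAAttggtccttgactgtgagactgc
Sprr1a (chr3:92485896-92486131, minus strand): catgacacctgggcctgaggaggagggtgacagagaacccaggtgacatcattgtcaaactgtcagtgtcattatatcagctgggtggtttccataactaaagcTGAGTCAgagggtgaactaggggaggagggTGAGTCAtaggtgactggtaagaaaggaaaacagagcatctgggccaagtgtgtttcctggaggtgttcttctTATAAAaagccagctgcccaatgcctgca

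RefSeq held the promoters of 14 of the 16 genes. The 250 bases before the RefSeq start were identical in Sprr2a1 and Sprr2a2, and 222 of them recurred without a difference in Sprr2a3. The window of Sprr2a2 lies within the annotated first intron of Sprr2a2-202. The first exon of that transcript begins at position 92215920, downstream of the RefSeq start of Sprr2a1 at 92215835, so the bases just before it lie outside the window. The longest local alignment between the windows of Sprr2a1 and Sprr2b covered 8 bases, whereas those of Sprr2b and Sprr2d aligned over 195 positions at 70.3% identity, with gaps counted as differences. On either strand, AP-1 letters occurred in 8 of the 14 windows (Sprr1a, Sprr2b, Sprr2d, Sprr2e, Sprr2f, Sprr2h, Sprr2i and Sprr2k) against 4.43% of 27025 promoter windows of the same length. Sprr1a held them at 2 positions. TATA letters occurred in 10 of the 14 windows against 12.97% of all promoters, and the letters ATGCAAAT in 7, the same Sprr2 genes that held the AP-1 letters, against 1.61%. The windows of the 3 Sprr2a copies held none of these 3 motifs. They were not placed like the others, however. The first exon of Sprr2a3-202 begins at 92285417, downstream of the RefSeq start of Sprr2a3 at 92285304. In Sprr2d the RefSeq start and the first exon both lie at 92339140. Letters just before the first exons of Sprr2a2-202 and Sprr2a3-202 would thus lie outside the windows. A match is a description of letters and no evidence of binding, and the lack of one says nothing of a factor. Of the 8 genes with AP-1 letters, 4 were listed at 0 in every mouse.

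The split of summed Sprr2a among the copies was nearly the same in each mouse. Sprr2a2 took between 88.9% (KO-3) and 90.8% (KO-4) of the summed TPM. Sprr2a1 took 4.48% in KO-4 to 6.10% in KO-8, and Sprr2a3 took 4.38% in KO-9 to 5.39% in WT-7. Wild-type and Nrg4-/- mice overlapped in the share of every copy. The mean share of Sprr2a2 was 89.7% ± 0.57 (SD, n = 6) in wild-type and 89.8% ± 0.82 (SD, n = 5) in Nrg4-/- mice. For Sprr2a1 the means were 5.31% ± 0.40 and 5.37% ± 0.71, and for Sprr2a3 they were 5.01% ± 0.32 and 4.86% ± 0.32. None of the 3 shares differed by genotype beyond the spread between mice (two-sided exact permutation test over all 462 assignments of 6 and 5 mice, adjusted p = 0.857 for each copy).

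How much of Sprr2a belonged to which copy depended on the unit. In the authors' deposited table, the mean log estimated counts, turned back to counts, gave Sprr2a2 72.8%, Sprr2a1 22.9% and Sprr2a3 4.30% of the Sprr2a total. In geometric mean TPM over the same mice, the shares were 89.8%, 5.32% and 4.93%. The step from counts to TPM divides by transcript length, and the copies are annotated with transcripts of unequal length. Sprr2a1 has only the 3003-nt transcript, at 1170 TPM, and Sprr2a2 has Sprr2a2-202 at 19641 TPM and a 2867-nt transcript at 53.3 TPM. The 3 transcripts over 2000 nt carried 24.6% of the estimated counts and 5.78% of the TPM. A level of 1 TPM stood for 30.2 estimated counts of the Sprr2a1 transcript and for 5.62 of Sprr2a2-202. Summed Sprr2a rests on the same conversion, so its TPM depends on which transcript the shared reads were given to.

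**Figure D2:**
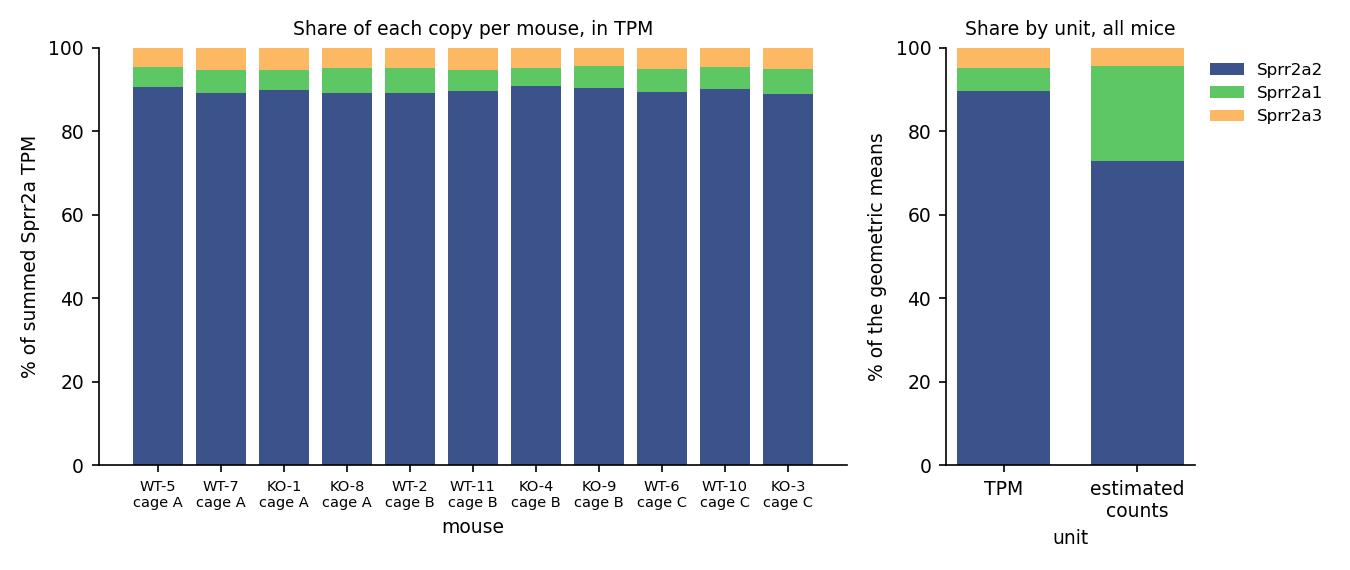
Left, percent of summed Sprr2a TPM assigned to each copy in each mouse. Right, percent of the geometric means over all mice held by each copy in TPM and in the authors' estimated counts, where Sprr2a1 goes from 5.32% to 22.9% and Sprr2a2 from 89.8% to 72.8%.

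The comparison of Nrg4-/- with wild-type mice asks whether loss of the growth factor was accompanied by another level of these genes. No Sprr gene passed the test. In the limma fit with cage and genotype as terms, 0 of the 5 Sprr genes tested and 4 of all 10756 genes (0.0372%) passed a Benjamini-Hochberg adjusted p of 0.05. At an unadjusted p below 0.05 the counts were again 0 of 5, against 3.1% of all genes tested. Summed Sprr2a had a log2 difference of -0.02 ± 0.13 (SE) with a 95% interval from -0.31 to 0.27, or 0.809 to 1.21 times the wild-type level (limma, adjusted p = 1.00). The sign of this difference was positive, at 0.011, with mitochondrially encoded genes left out of the TPM total. A two-sided exact permutation test of the single value gave p = 0.749 over all 462 assignments and p = 0.833 over the 108 that keep the genotypes of each cage, where the smallest possible values are 0.00216 and 0.00926. Changes within that interval were not excluded by these 11 mice, and the interval is not a limit of detection.

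Single members showed the same picture. Sprr2a1, Sprr2a2 and Sprr2a3 had log2 differences of 0.01 ± 0.11, -0.02 ± 0.13 and -0.06 ± 0.12 (SE). Sprr2b was 4.76 ± 1.58 TPM in wild-type (SD, n = 6) and 4.09 ± 0.72 TPM in Nrg4-/- mice (SD, n = 5), a log2 difference of -0.14 ± 0.22 (SE). Sprr1a had the widest interval, with a log2 difference of -0.60 ± 0.50 (SE) and 95% bounds of -1.71 and 0.51. Every adjusted p in the limma fit was 1.00. The median log2 difference of all genes tested was -0.01, and 53.2% of them had a lower estimate in Nrg4-/- mice. In the authors' deposited table the p-value for Sprr1a was 0.252 with a q-value of 1, and the other Sprr transcripts it lists with a test had p-values and q-values of 1.

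**Figure D3:**
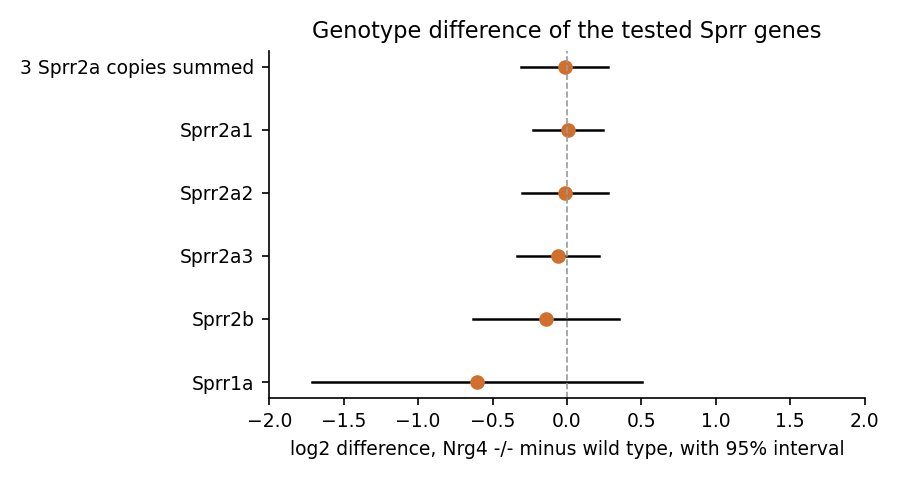
Log2 difference in level, Nrg4-/- minus wild type, on log2(TPM + 0.5) with its 95% interval from limma, for the 3 Sprr2a copies summed and for each tested Sprr gene. All intervals cross 0, and the one for Sprr1a, from -1.71 to 0.51, is the widest.

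Summed Sprr2a varied little between mice for a gene in this table. The SD of its log2(TPM + 0.5) was 0.15, below the median of 0.27 over all genes tested and of 0.19 over the 92 genes above 1000 TPM. By cage, the sum averaged 22283 ± 1831 TPM in A (SD, n = 4), 20494 ± 1765 in B (SD, n = 4) and 23453 ± 3367 in C (SD, n = 3). The difference between cages did not pass the test (limma F test for cage, adjusted p = 0.790). No Sprr gene passed the cage test, for which 0% of all genes passed the adjusted threshold and 12.1% had an unadjusted p below 0.05. The genotype difference was not shown to depend on cage (limma interaction, adjusted p = 1.00 for the sum, with 0.0186% of all genes called). The interaction rests on 1 Nrg4-/- mouse in cage C.

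Sprr1a varied more between mice than the Sprr2a copies did. In wild-type mice its level was 16.7 TPM in WT-5 against 1.97 to 4.98 TPM in the other 5. In Nrg4-/- mice it was 17.4 TPM in KO-8, against 2.58 in KO-9, 2.13 in KO-3, 2.07 in KO-1 and 0.988 in KO-4. The 2 high mice were of opposite genotype and shared cage A, whose other mice, WT-7 and KO-1, read 4.98 and 2.07 TPM. The highest mouse exceeded the lowest by 17.6-fold, and the SD of log2(TPM + 0.5) was 1.13, against a median of 0.29 over the 3983 genes within 2-fold of the mean level of Sprr1a. Sprr1a was a low gene, with a geometric mean of 24.3 estimated counts in the authors' deposited table, where the estimation error given there equals about 25.8% of the count.

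By cage, Sprr1a averaged 10.3 ± 7.89 TPM in A (SD, n = 4), 2.68 ± 1.34 in B (SD, n = 4) and 2.58 ± 0.919 in C (SD, n = 3). The log2 difference of cage A from the mean of B and C was 1.50, which did not pass the limma F test for cage (unadjusted p = 0.0451, adjusted p = 0.408). Without KO-8 this difference was 0.99 and without WT-5 it was 1.19. The log2 difference between genotypes was -1.02 without KO-8 (limma, unadjusted p = 0.0350, adjusted p = 0.834) and -0.38 without WT-5 (adjusted p = 0.987). Without KO-1 it was -0.22 (limma, adjusted p = 1.00). In the other cages, Sprr1a was 2.89 and 4.25 TPM in the wild-type mice of B against 0.988 and 2.58 in the Nrg4-/- mice, and 1.97 and 3.63 against 2.13 in C.

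**Figure D4:**
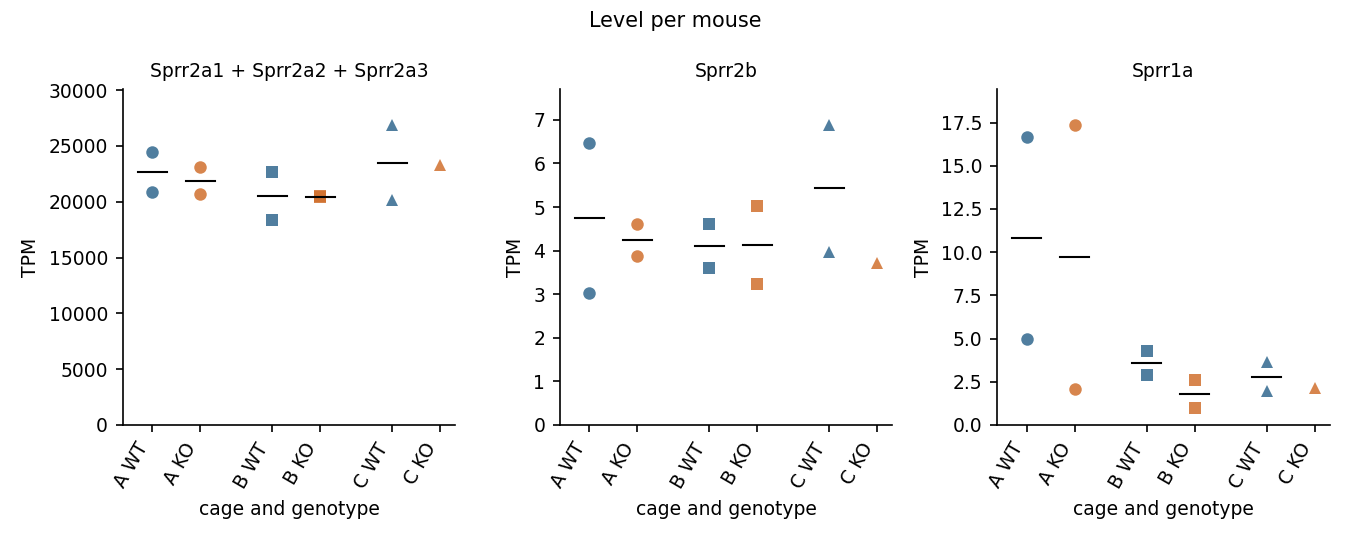
TPM per mouse of the 3 Sprr2a copies summed, of Sprr2b and of Sprr1a, by cage (A, B, C) and genotype (WT blue, KO orange), with a line at the mean where a group has 2 mice. Summed Sprr2a stays between 18368 and 26881 TPM, and Sprr1a is at 16.7 and 17.4 TPM in 1 mouse of each genotype in cage A and at most 4.98 elsewhere.

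The members did not follow one another closely. Over 11 mice, Sprr1a and summed Sprr2a had a Pearson's r of -0.0036 (permutation p = 0.992, adjusted p = 0.992 over 2 pairs) and a Spearman's rho of 0.28 (permutation p = 0.402, adjusted p = 0.402). Without WT-10 and WT-7, the mice farthest from the median sum, r was -0.06, and on deviations from the cage means over 11 mice it was -0.15. Over the 9 mice other than WT-5 and KO-8, which stood apart in Sprr1a, r was 0.46 (permutation p = 0.213) and rho 0.42 (permutation p = 0.270), a choice of mice made after the data were seen. The sign of r thus depended on WT-5 and KO-8, and none of these values passed its test. WT-5 and KO-8 themselves had sums of 20865 and 20687 TPM, near the middle of all mice. Sprr2b followed summed Sprr2a over 11 mice with r = 0.68 (permutation p = 0.0215, adjusted p = 0.0430 over 2 pairs) but with rho = 0.50 (permutation p = 0.122, adjusted p = 0.244). Without WT-10 and WT-7, r was 0.16, but leaving out the mice farthest from the median also narrows the range of the sum. That value therefore cannot show whether the relation rests on those 2 mice. On deviations from the cage means over 11 mice, r was 0.68 (permutation p = 0.0232) and rho 0.64 (permutation p = 0.0396). Sprr2b was a low gene, with a geometric mean of 27.6 estimated counts and an estimation error of about 19.6%. It shares 28 of its 710 windows with Sprr2a1, whose geometric mean was 35011 estimated counts. The part of shared reads in the relation was not tested.

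The genes most like Sprr1a over the 11 mice were Plaur, Yrdc, Ccdc71l, Epha2, Gprc5a, Vps37b, Lrfn4 and Rhbdf2, with Pearson's r on log2(TPM + 0.5) from 0.93 to 0.95. These were the 8 highest of 10392 named genes, of which 174 had r above 0.8, 28 above 0.9 and 242 below -0.8. For summed Sprr2a the count above 0.8 was 6 and the count below -0.8 was 19. Plaur, the receptor for urokinase plasminogen activator, read 11.4 TPM in WT-5 and 13.7 in KO-8 against 1.31 to 3.27 in the other 9 mice. Epha2, an ephrin receptor tyrosine kinase, read 52.3 and 36.5 TPM against 3.29 to 6.57. Gprc5a, an orphan receptor of epithelial cells that retinoic acid induces, read 488 and 440 TPM against 68.5 to 155. In all 3 genes the mice that were high were the mice high in Sprr1a. Picking genes by their r with Sprr1a, whose spread lay mostly in WT-5 and KO-8, largely fixed this outcome. Over the other 9 mice the r of the 8 genes with Sprr1a was 0.62 to 0.77, and on deviations from cage means over 11 mice it was 0.88 to 0.95. These values are not independent of the choice, since the same mice entered the correlation that picked the genes. The mice share tissue and library kit and fall into 3 cages, and no test was made of these relations.

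**Figure D5:**
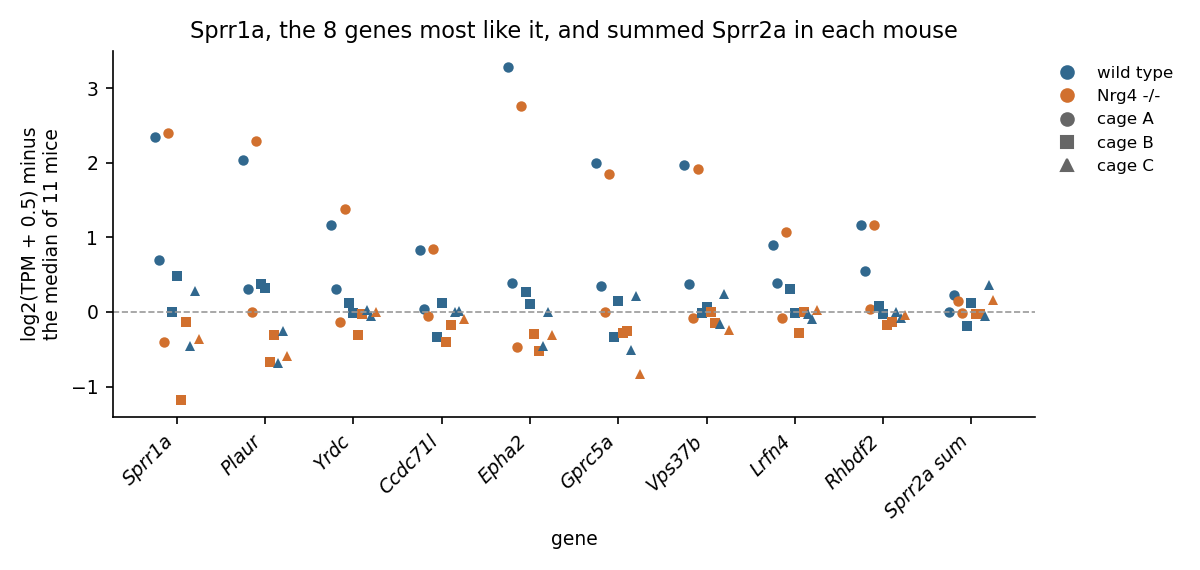
Log2(TPM + 0.5) in each mouse, as the difference from the median of the 11 mice, for Sprr1a, the 8 named genes with the highest correlation with it, and summed Sprr2a. WT-5 and KO-8 (circles, cage A) are the highest points for Sprr1a and the 8 genes and lie near 0 for summed Sprr2a.

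The genes most like summed Sprr2a were Gon7, Dnaja1, Zcchc17, Abhd6, Ppil1, Cog8, Fam183b and Srpk1, with r from 0.79 to 0.84. Dnaja1, a cochaperone of HSP70, went from 21.2 TPM in WT-2 to 38.4 TPM in WT-10, the mice with the lowest and highest sum. Gon7, a subunit of the complex that modifies transfer RNA, read 2.65 and 7.83 TPM in the same mice. Summed Sprr2a differed by only 1.46-fold between these mice, so the likeness rests on small differences.

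The partners of Sprr proteins in the cornified envelope were mostly low or listed at 0. Of 38 other genes of the envelope and the epidermal differentiation complex, 25 were listed at 0 in every mouse, among them filaggrin (Flg) and the late cornified envelope genes. Loricrin (Lor) read 0.235 to 1.48 TPM and involucrin (Ivl) at most 0.122 TPM. The 5 that could be tested were the plakin-family genes Evpl and Ppl, the protease inhibitor Csta1, Cdsn and Scel. Evpl, the highest, read 9.11 ± 2.39 TPM in wild-type (SD, n = 6) and 9.67 ± 2.64 TPM in Nrg4-/- mice (SD, n = 5). None of the 5 passed the genotype test in limma, with 4 estimates higher and 1 lower in Nrg4-/- mice and a median log2 difference of 0.09, against -0.01 over all genes tested.

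Among the 8 transglutaminases, which carry out the cross-linking, Tgm3 was the highest, at 496 ± 91.2 TPM in wild-type (SD, n = 6) and 530 ± 170 TPM in Nrg4-/- mice (SD, n = 5). Tgm2 read 17.1 ± 4.95 and 19.2 ± 4.24 TPM in the same groups. Tgm1, the membrane-bound enzyme of keratinocytes, read at most 0.354 TPM. Neither of the 2 tested members passed the genotype test. Tgm3 was lowest in KO-8, at 262 TPM, and its r with Sprr1a over 11 mice was -0.73. In WT-5, also high in Sprr1a, Tgm3 read 447 TPM, within the 395 to 699 TPM of the remaining mice. Of the S100 genes of the same complex, calcium-binding proteins, 8 of 13 could be tested and 0 passed in limma. S100a6 had the highest level of them, at 5461 ± 691 TPM in wild-type (SD, n = 6) and 5199 ± 1186 TPM in Nrg4-/- mice (SD, n = 5).

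Markers of squamous epithelium were at the bottom of the scale, and those of colon epithelium were present. None of the 15 squamous markers could be tested. Their summed level was 2.05 to 4.39 TPM in wild-type and 2.15 to 3.24 TPM in Nrg4-/- mice. Krtdap was listed at 0 in every mouse, Krt5 read at most 0.427 TPM and Krt14 at most 0.435 TPM. In the mice with high Sprr1a, WT-5 and KO-8, the summed squamous markers were 2.05 and 2.37 TPM, at the low end of all mice. All 10 colon epithelium markers passed the filter, with Krt8 at 3252 ± 426 TPM in wild-type (SD, n = 6) and 3158 ± 670 TPM in Nrg4-/- mice (SD, n = 5), and their sum was 6767 to 11057 TPM in wild-type and 6139 to 10239 TPM in Nrg4-/- mice. The markers thus match the tissue label.

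Genes of surface colonocytes, the differentiated cells at the lumen, did not pass the genotype test in limma (0 of 19, 8 higher and 11 lower in Nrg4-/- mice, median log2 difference -0.04). Lypd8 read 13145 ± 1833 TPM in wild-type (SD, n = 6) and 12980 ± 1132 TPM in Nrg4-/- mice (SD, n = 5). Saa1, an acute-phase apolipoprotein, read 3263 ± 683 and 3364 ± 800 TPM. The median r of the 19 genes with summed Sprr2a was 0.30 over 11 mice, against -0.04 over all genes tested outside the family. Microbe-responsive epithelial genes passed in 0 of 13 tested and genes of the type 2 cytokine response in 0 of 6. Reg3g, a lectin that acts against Gram-positive bacteria, read 2.78 ± 2.42 TPM in wild-type (SD, n = 6) and 1.60 ± 1.18 TPM in Nrg4-/- mice (SD, n = 5).

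Some genes of wounded epithelium were high in the same mice as Sprr1a. None of the 15 tested members of that list passed the genotype test in limma, with 6 higher and 9 lower in Nrg4-/- mice and a median log2 difference of -0.29. There were 5 members, named after their values were seen, that had r above 0.8 with Sprr1a, namely Plaur, Areg, F3, Cldn4 and Krt7. That is 5 of 15, against 1.65% of the 10751 genes tested outside the family. The median r of the 15 was 0.41, and the lowest was -0.55, in Il1rn. The list was chosen with earlier results of these data known, and the spread of Sprr1a lay mostly in WT-5 and KO-8. These counts therefore carry no test. Areg, a ligand of the epidermal growth factor receptor, read 208 TPM in WT-5 and 110 TPM in KO-8 against 9.63 to 27.7 in the other 9 mice. Cldn4, a tight-junction claudin, read 108 and 151 TPM against 28.1 to 68.1. Ly6a, a surface protein of the same list, went the other way, at 241 and 202 TPM against 246 to 401, so the list did not move as one.

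Transcription factors of epithelial differentiation and AP-1 had 0 of 18 tested members past the genotype threshold in limma, 10 higher and 8 lower in Nrg4-/- mice. Fosl1, an AP-1 subunit that missed the filter because few mice reached 1 TPM, read 24.6 TPM in WT-5 and 20.6 TPM in KO-8 against 0.381 to 1.40 in the other 9 mice. Maff and Junb had r of 0.86 and 0.82 with Sprr1a, the only 2 of the 18 above 0.8, and the median r was 0.04. Klf5, a factor of crypt and surface epithelium, was lowest in the same mice, at 53.1 and 44.7 TPM against 142 to 184 in the other 9, with r of -0.91. Nfe2l2, Ehf and Ovol1 also had negative r, at -0.84, -0.81 and -0.81. The AP-1 genes Fos and Fosl2 had r of 3.5e-05 and 0.16, so AP-1 genes did not move as one. Fosl1, Maff, Junb, Klf5, Nfe2l2, Ehf and Ovol1 were singled out after their values were seen. Klf4, a factor of surface colonocytes, read 178 ± 27.6 TPM in wild-type (SD, n = 6) and 190 ± 29.4 TPM in Nrg4-/- mice (SD, n = 5).

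Markers of other cell types were set beside the high Sprr1a of WT-5 and KO-8. The summed smooth muscle markers were 5137 TPM in WT-5, the highest of all mice, and 3697 TPM in KO-8, against 2565 to 4574 in the other 9. Of the 6 neutrophil markers, S100a8 read at most 0.501 TPM and S100a9 at most 1.17 TPM in any mouse. Cxcr2, Csf3r and Retnlg read at most 0.447, 0.178 and 0.195 TPM. Only Ly6g passed the filter, and it was lowest in WT-5 and KO-8, at 169 and 173 TPM against 262 to 510. With the other markers near the floor, Ly6g alone is not a measure of neutrophils here. The part of these differences in the level of Sprr1a was not tested. Leukocyte, skeletal muscle, enteric neuron and adipocyte markers had 0 members past the genotype test among 2, 1, 2 and 2 tested. Over all 16 lists, 105 distinct genes were tested, 0 passed the adjusted threshold in limma and 1 had an unadjusted p below 0.05.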

How the data were processed

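RNA from full-thickness distal colon of 11 mice was sequenced as single-end reads of 75 nt from stranded mRNA libraries, per the labels' protocols. CASAVA, kallisto, sleuth and mm10 are named in the submitters' processing notes, with versions not given in the sources used here. The authors deposited 1 table of principal transcripts with TPM per mouse, which is corrected for transcript length and sums to 558446 to 770986 TPM per mouse here. Per the file headers it also holds the authors' p-value and q-value, a natural log mean of estimated counts with its variances, and a log2 ratio of the genotypes. Depth is unknown, and precision is limited by the number of mice. P-values of group differences set the difference against the spread between these mice.

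Of 29213 rows, 405 repeated a transcript and were dropped, and the remaining 28808 transcripts were summed to 22243 genes. The 18 Sprr transcripts gave 16 genes. Differences were fitted with limma 3.58.1 in R 4.3.3 (trend, cage and genotype as terms, Benjamini-Hochberg) on log2(TPM + 0.5), which understates fold changes of low genes, for the 10756 genes that reached 1 TPM in 5 or more mice. The Sprr2a copies were also summed before the fit, which then held 10754 genes. Single values were tested with exact permutation over mice, and correlations with 100000 permutations. The scripts were tested on simulated data. Sequences came from GENCODE M21 and RefSeq.

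The members and the gene lists were chosen with earlier results of these data known. Named were all Sprr genes, Nrg4, in each list the 2 tested members with the highest mean and the 2 with the smallest genotype p, and the 8 named genes most like summed Sprr2a. A gene that this rule names is not reported here. The same rule for Sprr1a, and the other genes named beside it, were added after the data were seen. Alternatives were other pseudocounts, filters, scalings and terms, single cages, and leaving out each mouse.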

Additional observations from a re-analysis of the deposited data

Results flagged for a closer look

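In a group of 4 to 10 mice, a mouse was marked where its gap to the next value was large for the range of the group. Of 20 groups examined over the family, 3 held such a mouse. Chance would mark about 1 group in 20 if values were normally distributed and groups independent. The groups overlap, since the copies, their sum and their shares come from the same values. Gaps were measured in TPM, where a high value stands out more than in log2 units. The count of 3 therefore carries no test. Sprr1a in wild-type mice was highest in WT-5 at 16.7 TPM, with the next mouse at 4.98 TPM. Sprr1a in Nrg4-/- mice was highest in KO-8 at 17.4 TPM, with the next at 2.58 TPM. Sprr2h in Nrg4-/- mice was highest in KO-8 at 0.816 TPM, with the next at 0.151 TPM and the rest listed at 0. No mouse stood apart in this way in summed Sprr2a, in a single Sprr2a copy, in the share of a copy or in Sprr2b.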

How the results depend on the processing

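Of 230 recomputed values, 200 kept their direction and their side of the threshold, 30 changed sign and none passed the threshold. Every change of sign was of a difference close to 0 or of the correlation named last. With TPM rescaled without mitochondrially encoded genes, the log2 difference of Sprr2a2 was 0.0114 and that of summed Sprr2a 0.0107. With genotype as the only term, Sprr2a1 was -0.0241, and with cage A against B and C as the cage term it was -0.0275. Within cages B and C it was -0.0079, Sprr2a2 was 0.0078 and the sum was 0.0032. The cause of these changes was not tested. Leaving out each mouse in turn gave log2 differences of -0.0624 to 0.0247 for the sum, -0.0555 to 0.0591 for Sprr2a1, -0.0651 to 0.0274 for Sprr2a2, -0.130 to 0.0158 for Sprr2a3, -1.02 to -0.22 for Sprr1a and -0.29 to -0.01 for Sprr2b. The differences in share ranged from -0.12 to 0.28 percentage points for Sprr2a1, -0.15 to 0.32 for Sprr2a2 and -0.24 to -0.03 for Sprr2a3. The difference of cage A in Sprr1a ranged from 0.99 to 1.99, a comparison chosen after the data were seen. The correlation of Sprr1a with summed Sprr2a was -0.0036 over 11 mice and 0.46 without WT-5 and KO-8, which was also chosen after the data were seen. No paired analysis was possible because no mouse number occurs in both genotypes. The interaction was not run without KO-3, since cage C then has no Nrg4-/- mouse. Fits within cages used a filter of 3 mice, and Sprr2b has no value under a mean filter of 5 TPM.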
